A study of Schizosaccharomyces pombe with 6 samples.

Results

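The genes described here are 10 regulators of mating and of entry into meiosis in the fission yeast Schizosaccharomyces pombe, namely ste11, map1, rep1, ste6, byr2, mam1, ste7, mei2, pat1 and mei3. They were given by name, and a gene was kept when the array holds a probe set that the annotation pairs with that gene alone. All 10 have 1 such probe set, out of 4965 probe sets tested. Gene expression was measured in 6 samples of the wild type strain 972 h-, all grown in liquid medium to an OD600 of 0.5. Of these, 3 were left untreated and 3 received 50 µM NaHS, a donor of hydrogen sulfide, for 30 min at 30°C. Each sample was hybridised to its own Affymetrix Yeast Genome 2.0 array. The study names 3 biological repeats, but the description of every sample reads biological rep1. The replicate numbers used here were read from the numbering in the sample titles and descriptions. The labels do not say whether samples with the same number came from 1 starting culture. No mutant, other dose or other time was included here, so that each result is 1 comparison of 3 arrays with 3 arrays.

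In fission yeast, mating and meiosis are normally started by nutrient starvation. The transcription factor Ste11 then turns on genes for pheromones, their receptors and early meiosis, and cells of the mating types M and P signal to each other through a G protein, the GTPase Ras1 and a MAP kinase cascade. Meiosis itself depends on the RNA-binding protein Mei2, which the kinase Pat1 holds inactive during growth until the inhibitor Mei3 is made in the diploid zygote. The strain used here carries the h- mating type, and no mating partner was added to the growing cultures, which limits them as a model of conjugation.

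The values are log2 signals made with the MAS5 algorithm, and 1 log2 unit is a factor of 2. Probe sets for Saccharomyces cerevisiae genes on the same arrays show the background, as no RNA of that yeast was used, and the 99th percentile of their mean log2 signals was 3.67. Of the 10 genes, 9 were above this limit on all arrays, and mei3 was below it on all 6. Array medians over the tested probe sets lay between 9.49 and 9.58. The arrays numbered 1 stood apart from the others, with correlations to arrays of their own group between 0.9692 and 0.97, while within a group numbers 2 and 3 correlated by 0.9955 and 0.9938. The treatment effect was tested with limma, and genes were called changed at a Benjamini-Hochberg adjusted p below 0.05 over all tested probe sets. A change is the mean log2 signal after NaHS minus that of untreated cells. Standard errors (SE), 95% confidence intervals and adjusted p-values are those of limma with n = 3 arrays per group, and the intervals are not adjusted for the number of genes.

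After NaHS treatment, 3 of the 10 genes rose and 0 fell. The genes that rose were ste7 by 2.57-fold, mam1 by 1.68-fold and mei2 by 1.53-fold, whose products act in conjugation, pheromone export and meiosis. Over all tested probe sets 3.97% were called higher and 3.67% lower. The median change was 0.18 log2 units over the 10 genes and 0.01 over all tested probe sets. In 4 of the 10 genes, those 3 and byr2, each NaHS value was higher than every untreated value, and in 0 each was lower. That held for 14.6% of all tested probe sets upward and 13.7% downward. At an unadjusted p below 0.05, which 22.5% of all tested probe sets had, there were also 4 genes, again with byr2 added. The 10 genes were chosen with earlier results of these data known, so their counts beside these shares are description only.

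**Figure D1:**
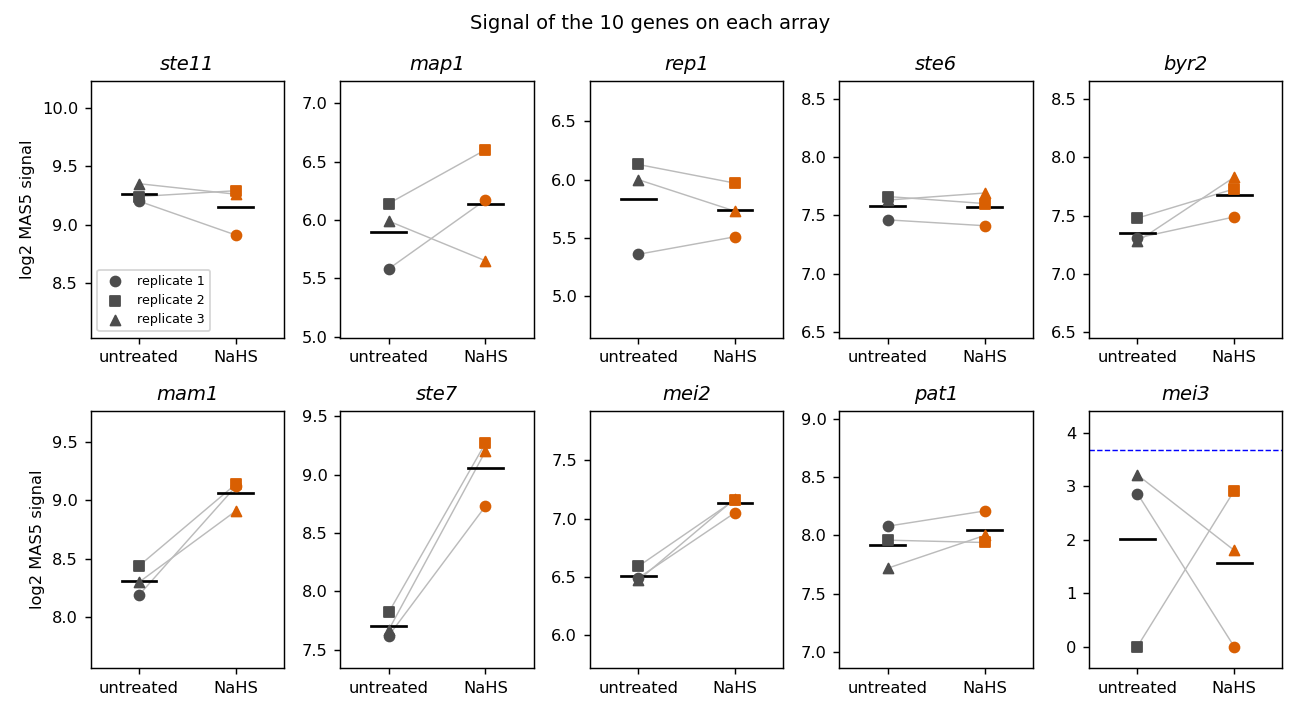
Log2 MAS5 signal (vertical axes) of each of the 10 genes on the 3 untreated and 3 NaHS arrays. Symbols mark the replicate number, grey lines join arrays of the same number, black bars are group means, the panels span equal ranges except that of mei3, and the dashed line there is the background limit of 3.67. The NaHS arrays lie above the untreated arrays for byr2, mam1, ste7 and mei2, and the groups overlap for the other 6 genes.

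At the head of the pathway is ste11 (SPBC32C12.02), which encodes the HMG-box transcription factor that starts sexual development. Its log2 signal was 9.20, 9.24 and 9.35 in untreated cells and 8.91, 9.29 and 9.26 after NaHS. The groups overlapped, and the lowest value was that of NaHS replicate 1. ste11 had a change of -0.11 (SE 0.12, adjusted p = 0.724), with a 95% confidence interval from -0.41 to 0.19. A rise of ste11 as large as those of mam1, mei2 and ste7 lies outside this interval, while a small change in either direction lies within it.

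Of the other transcriptional regulators, map1 (SPAC11E3.06) encodes a MADS-box factor needed for mating-type-specific transcription. It gave log2 signals of 5.58, 6.14 and 5.99 in untreated cells and 6.17, 6.6 and 5.65 after NaHS, so that the groups overlapped. The change of map1 was 0.23 (SE 0.27, adjusted p = 0.734). The gene rep1 (SPBC2D10.06) encodes a zinc finger protein that works with the MBF transcription complex at the DNA replication that precedes meiosis. In untreated cells its log2 signals were 5.36, 6.13 and 6.0, and after NaHS they were 5.51, 5.97 and 5.73. With a change of -0.09 (SE 0.23, adjusted p = 0.909), rep1 varied more between replicate numbers than between treatments, and both arrays numbered 1 were the lowest of their group. The confidence intervals were wide for both genes, from -0.42 to 0.89 for map1 and from -0.66 to 0.48 for rep1. They include a rise of map1 as large as that of mei2 and a decrease of rep1 of that size.

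In the pheromone signal, ste6 (SPCC1442.01) encodes the exchange factor that activates Ras1. Untreated cells had log2 signals of 7.46, 7.66 and 7.63 for ste6, and NaHS-treated cells of 7.41, 7.6 and 7.69, nearly the same in both groups. This is a change of -0.02 (SE 0.10, adjusted p = 0.98), with a confidence interval from -0.27 to 0.24. The gene byr2 (SPBC1D7.05) encodes the first kinase of the MAP kinase cascade below Ras1. For byr2 the log2 signals were 7.31, 7.48 and 7.28 in untreated cells and 7.49, 7.73 and 7.83 after NaHS. The groups did not overlap, but the lowest NaHS value was only just above the highest untreated value. Its change of 0.33 (SE 0.11) did not pass the test (adjusted p = 0.161). When the replicate number was added to the fit as a block, 16.3% of all tested probe sets were called higher, and byr2 passed narrowly (adjusted p = 0.0484).

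The gene mam1 (SPBC25B2.02C) encodes the ABC transporter that carries the mating pheromone M-factor out of M cells. Log2 signals of mam1 were 8.19, 8.44 and 8.30 in untreated cells and 9.12, 9.14 and 8.91 after NaHS. The NaHS values were well above the untreated ones. The log2 differences between arrays of the same number were 0.93, 0.69 and 0.61 for the numbers 1, 2 and 3. mam1 had a change of 0.75 (SE 0.10, adjusted p = 0.0132), with a confidence interval from 0.49 to 1.0. The call was lost without untreated replicate 3 (adjusted p = 0.0736) or NaHS replicate 2 (adjusted p = 0.062).

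The largest change among the 10 genes was that of ste7 (SPAC23E2.03C), whose product is required for conjugation and represses meiosis. Its log2 signals were 7.62, 7.82 and 7.67 in untreated cells and 8.73, 9.27 and 9.20 after NaHS. The gap between the groups was wider than the spread within either of them, although NaHS replicate 1 was below the other NaHS arrays. The change was 1.36 (SE 0.16, adjusted p = 0.00749), with a confidence interval from 0.98 to 1.75, and 0.785% of all tested probe sets had a larger change in either direction. By replicate number the log2 differences were 1.11, 1.45 and 1.53. Leaving out any 1 of the 6 arrays kept the call of ste7, and the highest adjusted p was 0.0489, without untreated replicate 3.

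**Figure D2:**
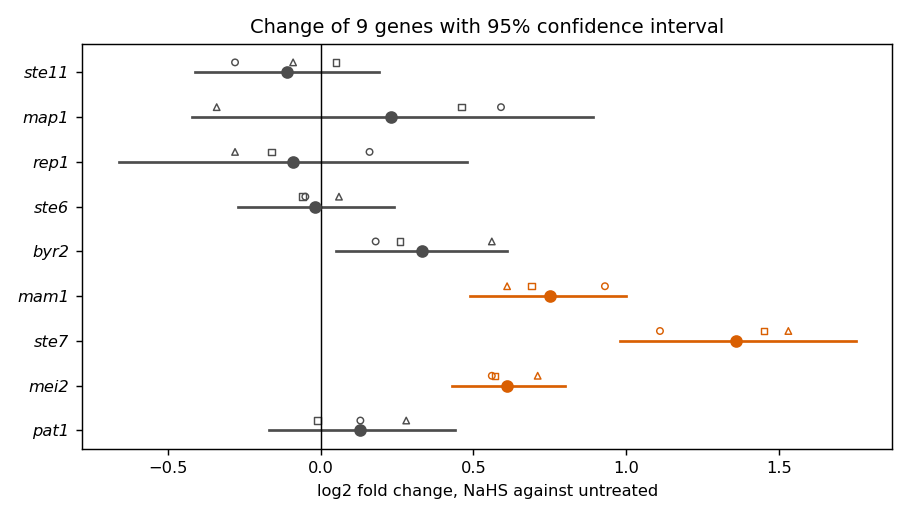
Change between untreated and NaHS arrays in log2 units (horizontal axis) of 9 genes, with filled points for the limma estimate, lines for its 95% confidence interval and open symbols for the differences between arrays of the same replicate number. Orange genes passed the test, and mei3, whose signals were at background, is not drawn. The interval of mei2 begins at 0.43, those of mam1 and ste7 begin higher, that of byr2 begins at 0.05 and the other 5 include 0.

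The last 3 genes control the switch to meiosis, and only mei2 among them passed the test. The gene mei2 (SPAC27D7.03C) encodes the RNA-binding protein without which meiosis does not begin. On untreated arrays its log2 signals were 6.49, 6.59 and 6.47, and on NaHS arrays they were 7.05, 7.16 and 7.17. The values were close together within each group and the groups were clearly apart. mei2 had a change of 0.61 (SE 0.07, adjusted p = 0.00849), with a confidence interval from 0.43 to 0.80. Its call was lost without untreated replicate 3 (adjusted p = 0.0622) and with quantile normalization (change 0.57, adjusted p = 0.107).

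The kinase gene pat1 (SPBC19C2.05), also called ran1, acts against Mei2. It had log2 signals of 8.08, 7.96 and 7.72 in untreated cells and 8.21, 7.94 and 8.0 after NaHS, and the groups overlapped. Its change was 0.13 (SE 0.12, adjusted p = 0.653), with a confidence interval from -0.17 to 0.44. The gene mei3 (SPBC119.04), whose product inhibits Pat1, was at background. Of its 6 values, 2 were blank, those of untreated replicate 2 and NaHS replicate 1, and were read as 0. The others were 2.86 and 3.21 in untreated cells and 2.91 and 1.80 after NaHS. Below the background limit such values have no order, and the change of -0.45 (SE 1.08, adjusted p = 0.907) is not interpreted. mei3 was not detected above background in either group.

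Whether ste7, mei2 and mam1 changed differently from ste11 was tested with the difference of log2 signals within each array. The difference between ste7 and ste11 was -1.58, -1.42 and -1.69 in untreated cells and -0.19, -0.02 and -0.07 after NaHS, a shift of 1.47. The shift was 0.72 between mei2 and ste11 and 0.86 between mam1 and ste11. In these 3 pairs the NaHS and untreated arrays did not overlap, and the two-sided exact permutation p was 0.1 for each (0.1 after adjustment over the 3 pairs), the smallest that 3 against 3 arrays can give. These 3 genes were compared with ste11 after their values had been seen.

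**Figure D3:**
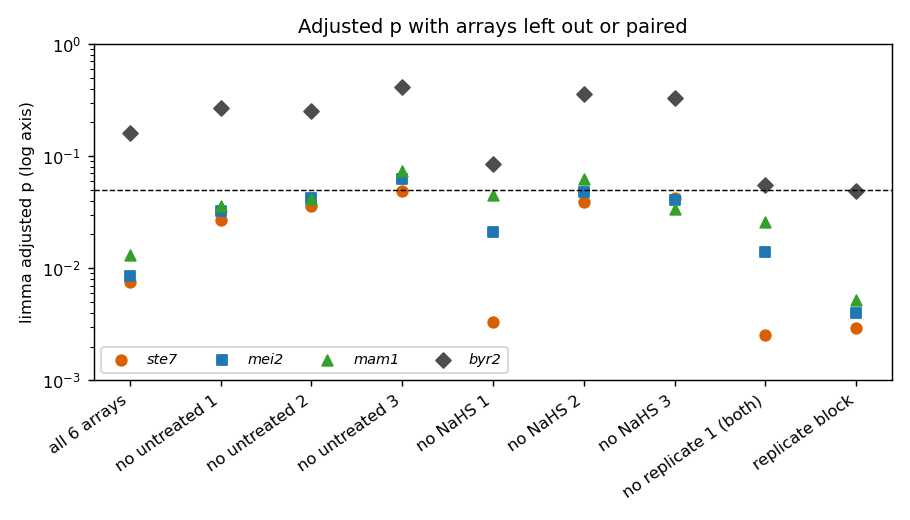
limma adjusted p (vertical axis, log scale) of ste7, mei2, mam1 and byr2 with all 6 arrays, with each array left out, without both arrays numbered 1 and with the replicate number as a block. The dashed line is the threshold of 0.05. ste7 is below it in each of these fits, mei2 and mam1 are above it without untreated replicate 3 (0.0622 and 0.0736), mam1 also without NaHS replicate 2, and byr2 is below it only with the block (0.0484).

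Without both arrays numbered 1, an alternative added after the data had been seen, the same 3 genes were called higher, as were 6.97% of all tested probe sets. The changes were then 1.49 for ste7 (adjusted p = 0.00252), 0.65 for mam1 (adjusted p = 0.0258) and 0.64 for mei2 (adjusted p = 0.0138). byr2 did not pass in it (change 0.41, adjusted p = 0.0555). SAM, the test named in the methods of the study, was programmed anew for this work, so its calls are not those of the study. It also called ste7, mam1 and mei2 and 0 of the other 7, and it called 2.38% of all tested probe sets higher.

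The arrays numbered 1 were the lowest of both groups for ste7, ste11, ste6 and rep1, 4 of the 10 genes, and the highest of both groups for pat1. For rep1, the untreated array numbered 1 was 0.71 below the mean of the other untreated arrays, and the NaHS array numbered 1 was 0.34 below the other NaHS arrays. For pat1 it was 0.24 above in both groups. Such positions were common, since 37.7% of all tested probe sets had the arrays numbered 1 lowest in both groups and 32.9% had them highest. The part of the culture, RNA or array in this difference was not tested.

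The mating type of the strain was compared with its marker genes. Genes of the mating-type locus itself were not analysed here. Of 7 measured genes that are typical of M cells, 6 were above the background limit on all arrays, among them mfm2, which encodes a precursor of M-factor, and mam2, which encodes the receptor for P-factor. The exception was mfm1, another M-factor gene, which was below the limit on 3 of the 6 arrays. A second probe set of mfm1, with a lower mean, was below the limit on 4 of the 6. All 4 measured genes that are typical of P cells were above it too, among them map2, which encodes P-factor, and map3, which encodes the receptor for M-factor. By this limit the markers did not separate the mating types, but nearly all tested probe sets have a mean signal above it. The mean signal of the listed gene cuf2, which lay above the limit, was higher than that of only 0.987% of them. Passing the limit therefore cannot show that a marker is active in these cells. The summed signal of the M genes ranged from 10.87 to 11.64 on the log2 scale in untreated cells and from 11.28 to 11.97 after NaHS, and that of the P genes from 11.58 to 11.80 and from 11.54 to 11.76. The largest part of each sum came from 1 probe set. For the M genes it was that of mfm2 (9.97 to 11.25 over the 6 arrays), and the called gene mam1 is also in that sum. For the P genes it was that of the protease gene sxa1 (11.35 to 11.63), while the other P genes lay between 5.08 and 8.12. Signals of different probe sets cannot be set against each other, so the sums give no order of M and P genes. Among the 7 M genes 1 was called changed, which was mam1, and 3 with the replicate block, mam1, mfm2 and the peptidase gene sxa2 (change 0.30, adjusted p = 0.496, or 0.0248 with the block). Among the 4 P genes 0 were called, and 1, map2, with the block. Over all tested probe sets 3.97% were called higher and 3.67% lower, and with the block 16.3% and 16.4%. The arrays numbered 1 were lowest in both groups for 5 of the 7 M genes and 2 of the 4 P genes. That held for 37.7% of all tested probe sets.

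For the M-factor gene mfm2, the log2 signals were 9.97, 10.87 and 10.93 in untreated cells and 10.28, 11.25 and 11.23 after NaHS. Each NaHS array was above the untreated array of its number, while the arrays numbered 1 were well below the others. The change of mfm2, 0.33, did not pass (adjusted p = 0.73) and passed with the replicate block (adjusted p = 0.00869). The P-factor gene map2 had log2 signals of 5.81, 6.14 and 6.24 in untreated cells and 5.08, 5.77 and 5.35 after NaHS, the groups just not overlapping. Its change of -0.67 did not pass either (adjusted p = 0.122, or 0.0162 with the replicate block).

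Among 111 other measured genes of mating and meiosis, from lists drawn up by function, 4 rose and 1 fell. Of all tested probe sets 3.97% were called higher and 3.67% lower, so that the share that rose was near the background and fewer fell than at the background share. The median change was 0.04. With the replicate block 21 rose and 9 fell, where 16.3% of all tested probe sets were called higher and 16.4% lower. SAM as programmed here called 0 of the 111, and when 1 array was left out 0 to 1 rose and 0 to 1 fell.

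In the list of 12 genes for pheromone signal transduction, 1 rose and 0 fell (3 and 0 with the replicate block). Over all tested probe sets 3.97% were called higher and 3.67% lower, or 16.3% and 16.4% with the block. The gene that rose was rgs1, whose product turns off the G protein of the pheromone receptors. Log2 signals of rgs1 were 7.41, 7.61 and 7.37 in untreated cells and 8.05, 8.28 and 7.89 after NaHS, without overlap. The change was 0.61 (SE 0.12, adjusted p = 0.0414), and the call was lost whichever array was left out. The genes of the cascade below byr2 did not pass. spk1, which encodes the MAP kinase, changed by 0.46 log2 units on average (adjusted p = 0.0827, or 0.0295 with the block). For byr1, which encodes the kinase that acts on it, the value was -0.22 (adjusted p = 0.262).

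Of the 13 measured genes for pheromones, receptors and their processing 0 were called (3 rose and 2 fell with the block), and map2 and mfm2 marked the ends of the range of changes, from -0.67 to 0.33. Of the 9 genes for cell fusion and karyogamy 0 were called (2 rose with the block), with changes between -0.12 and 0.27. Beside these block counts stand 16.3% of all tested probe sets called higher with the block and 16.4% called lower.

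Of 44 measured genes that connect nutrients and stress to ste11, 2 rose and 1 fell (11 and 4 with the block). The main fit called 3.97% of all tested probe sets higher and 3.67% lower, and the block fit 16.3% and 16.4%. The gene wat1, which encodes a WD-repeat subunit of the TOR complexes, went from 10.30, 10.40 and 10.47 to 10.86, 10.86 and 10.99, a change of 0.52 (SE 0.08, adjusted p = 0.0187). The gene phx1, which encodes a homeobox transcription factor, went from 8.62, 8.60 and 8.46 to 8.95, 8.95 and 9.01, a change of 0.41 (SE 0.07, adjusted p = 0.0288). The gene that fell was sla1, for the La protein that binds new RNA polymerase III transcripts. It went from 11.80, 11.76 and 11.81 to 11.44, 11.50 and 11.52, a change of -0.30 (SE 0.06, adjusted p = 0.0468). The untreated and NaHS values were apart in all 3 genes. With 1 array left out, wat1 was called in 1 of 6 fits and phx1 and sla1 in 0. The call of sla1 was also lost when arrays were centred on their medians (adjusted p = 0.0642).

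The genes atf1 and pcr1 encode the paired transcription factors of the stress response that also act on ste11. Their changes of -0.45 and -0.67 did not pass (adjusted p = 0.178 and 0.385), and both passed with the block (adjusted p = 0.00575 and 0.0102). With the block 16.4% of all tested probe sets were called lower. Both genes were picked after their values had been seen.

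**Figure D4:**
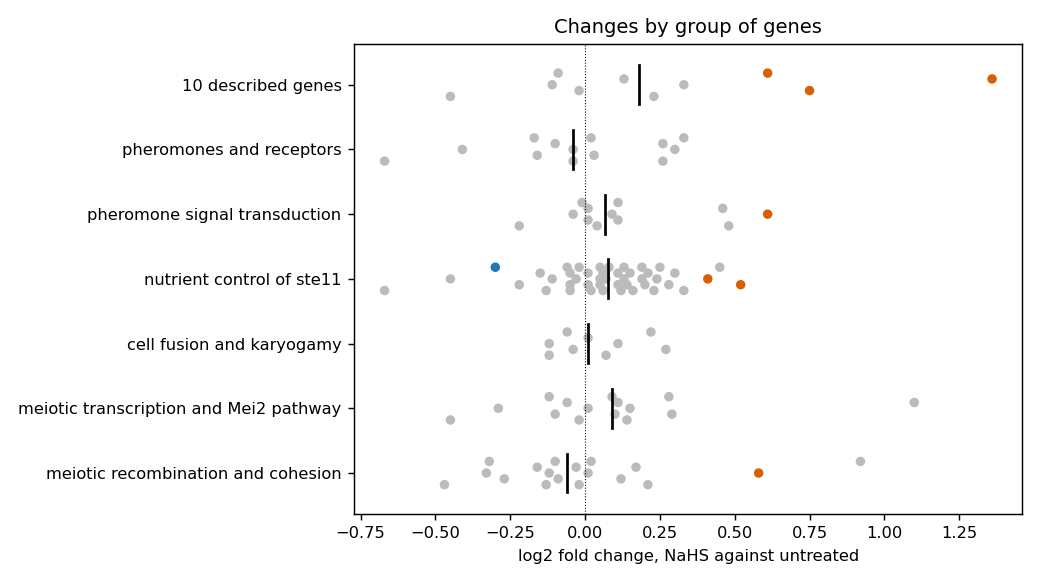
Change between untreated and NaHS arrays in log2 units (horizontal axis) of the 10 described genes and of 111 other genes in 6 functional lists, 1 point per gene. Orange points rose, the blue point fell, grey points did not pass, and black bars are medians. The median is 0.18 for the 10 genes and between -0.06 and 0.09 for the lists.

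Of the 15 measured genes of meiotic transcription and the Mei2 pathway 0 were called (1 fell with the block), and their median change was 0.09. The gene with the highest change, rem1 for a meiotic cyclin (change 1.1, adjusted p = 0.4), was below the background limit on all 6 arrays, like mei3. Of the 18 measured genes of meiotic recombination and cohesion 1 rose and 0 fell (2 and 2 with the block), and the median change was -0.06. The shares over all tested probe sets were 3.97% higher and 3.67% lower, and 16.3% and 16.4% with the block. The gene that rose was dmc1, which encodes a recombinase that acts in meiosis. It went from 6.12, 5.88 and 5.83 in untreated cells to 6.66, 6.51 and 6.40 after NaHS, without overlap, a change of 0.58 (SE 0.11, adjusted p = 0.0351). With 1 array left out it was called in 1 of 6 fits. dmc1 and rgs1 also lost their calls with a trend on the mean signal in limma (adjusted p = 0.108 and 0.053).

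The genes whose log2 signals over the 6 arrays followed those of ste7 most closely, among 2913 other probe sets with 1 named gene, were etr1, puc1 and plr1, with Pearson's r of 0.995, 0.993 and 0.993. For mei2 they were plr1, etr1 and urg2 (0.998, 0.997 and 0.996). The 6 points fall into 2 treatment groups, so that genes with a like change have a high r, and 172 genes had an r above 0.9 with ste7 and 182 with mei2. For ste11 the closest were exg1, msd1 and urm1 (0.967, 0.961 and 0.960), and 30 genes were above 0.9. The changes were not of 1 size, being 0.76 for etr1, 0.60 for plr1, 1.79 for urg2 and 0.33 for puc1, of which puc1 did not pass (adjusted p = 0.053).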

How the data were processed

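Hybridization, image analysis and normalization were done by an array service. What the authors deposited is 1 log2 signal per probe set and array, made with MAS5, for which neither a version nor a scaling target is given in the sources used here. No deposited value is below 0, and blanks were set to 0. Of all deposited cells 23.59% were blank, but only 8 of the tested probe sets held a blank. Tested were the 2937 probe sets annotated to S. pombe genes, with no filter on their values, and 2028 unlisted ones with a mean above 3.67. Of the array's 10928 probe sets 213 controls were left out. Old symbols were updated through gene IDs, and for a gene with several probe sets the one with the highest mean was used.

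The 6 arrays were fitted with limma 3.58.1 in R 4.3.3 (4 residual and 2.016 prior degrees of freedom, two-sided). Python 3.11.15, NumPy 2.4.6 and pandas 2.3.3 made tables. SAM was programmed for this work (20 label arrangements, s0 of 0.426, estimated false discovery rate 0.0459). The fits were first run on 4965 simulated probe sets with 200 changed. With replicate differences simulated, limma recovered 34.3%, 68.7% and 98.5% of 1.5-fold, 2-fold and 4-fold changes and the block fit 74.6%, 89.6% and 97%, with 0% and 9.38% false calls. Without replicate differences, limma recovered 50.7%, 83.6% and 98.5% and the block fit 19.4%, 65.7% and 97%, with 2.52% and 2.42% false calls.

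Deviations from group means correlated by 0.867, 0.578 and 0.598 between same-numbered arrays, above the 0.1 taken to show pairing, and by 0.637 and 0.592 between numbers 2 and 3. The check thus rests on replicate 1. The main fit has no block, and blocked values or counts stand beside the calls they change. The number of arrays limits the precision.

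The members and lists were chosen with earlier results of these data known. Described by name are the 10 genes, called genes of the lists (at most 4 each), mating-type markers and the 3 genes most like ste7, ste11 and mei2. Chosen after their values were seen were byr1, spk1, atf1, pcr1 and rem1. Of 131 names on 7 lists, 111 genes were measured, and the 14 names of the mating-type locus gave 0. The alternatives were quantile and median scaling, blanks left missing, other sets of probe sets, eBayes with a trend, the block, SAM and leaving out arrays. Planned searches of promoter motifs were not run, since promoter sequences were not used here.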

Additional observations from a re-analysis of the deposited data

How the results depend on the processing

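Of the 10 genes, 3 rose in the main fit, and with quantile normalization 2 did, since mei2 was lost. The number lay between 1 and 3 with arrays left out, the lowest being without untreated replicate 3, and was 4 with the replicate block, and 0 fell throughout. Over all tested probe sets 197 rose and 182 fell, which became 807 and 815 with the block and 118 and 31 by SAM. With arrays left out these counts ranged from 67 (without untreated replicate 3) to 346 and from 24 (without untreated replicate 2) to 364. The highest counts were those without both arrays numbered 1. Among the 2937 annotated S. pombe probe sets alone, 92 rose and 77 fell. Of the 379 calls of the main fit, 188 were of annotated probe sets. The shares of 3.97% and 3.67% thus include unlisted probe sets, while the 10 genes and the genes of the lists are all annotated. Of the other genes of mating and meiosis, 4 rose and 1 fell, against 21 and 9 with the block and 0 and 0 by SAM. The number that rose was 2 with no background limit and 2 with a trend, and 0 to 7 with arrays left out. The number that fell was 0 with centred arrays and 0 with annotated probe sets alone, where sla1 was lost, and 0 to 1 with arrays left out. Signs turned only where changes were small or at background. With arrays left out the change ranged from -0.18 to 0.01 for ste11, from -0.08 to 0.06 for ste6, from -0.33 to 0.06 for rep1 and from -1.46 to 0.76 for mei3. The cause of these differences between settings was not tested. Among these 10 genes and the 5 called genes of the lists, no other alternative that was run changed a direction.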
